A study of Homo sapiens with 9 samples.

Results

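Of the cadherin superfamily, 10 genes were followed in MDA-MB-231 cells, a triple-negative breast cancer line, after stable silencing of GLO1, the enzyme that detoxifies methylglyoxal. They were 8 cadherins other than E-cadherin, CDH2, CDH3, CDH4, CDH6, CDH11, CDH12, CDH13 and CDH24, and 2 delta protocadherins, PCDH7 and PCDH18. They were chosen by name as the non-epithelial cadherins and non-clustered protocadherins to be read in every library, with cadherin switching in view, and they are 10 of the 26364 genes listed. The 9 RNA sequencing libraries were 3 of cells with a non-targeting shRNA (shNT), 3 of the shGLO1#1 clone and 3 of the shGLO1#2 clone. All 3 conditions were MDA-MB-231 cells carrying a stable shRNA, and each was a single line with 1 control clone. The p-values below therefore rest on how libraries of 1 line vary, and a difference between lines that is not due to GLO1 cannot be told apart from one that is.

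Classical cadherins are calcium-dependent adhesion proteins that bind a like cadherin on the neighbouring cell and are anchored inside the cell to actin through catenins. Type I cadherins (E-, N-, P- and R-cadherin) form strong junctions, and type II cadherins (such as K-cadherin, OB-cadherin and N-cadherin 2) make weaker and more mixed contacts. The loss of E-cadherin (CDH1) with a gain of N-cadherin (CDH2) is known as cadherin switching and accompanies the passage of carcinoma cells to a migratory state. Delta protocadherins such as PCDH7 and PCDH18 adhere weakly, do not bind beta-catenin and act largely through other cytoplasmic partners. For some delta protocadherins, though not all, these partners include the actin-regulating WAVE complex.

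The libraries held 15314238 to 18495576 counts on genes, and 3 counts, taken here as the limit that a count of 0 allows, came to 0.162 to 0.196 CPM, a gene's counts scaled to the size of its library. GLO1 mRNA lay between 312 and 323 CPM in shNT, between 64.2 and 65.9 CPM in shGLO1#1 and between 14.0 and 15.5 CPM in shGLO1#2. Every library thus matched its label as control or silenced. The level cannot tell which silenced group is shGLO1#1 and which is shGLO1#2. Markers of mesenchymal-like breast cancer lines (VIM, CD44, AXL, MSN and CAV1) summed to 6785 to 7566 CPM over all libraries. Estrogen and progesterone receptor mRNA (ESR1 and PGR) held 4, 13 and 3 and 0, 7 and 9 counts over shNT, shGLO1#1 and shGLO1#2. ERBB2 mRNA, of the HER2 receptor, was present, at 79.8, 75.4 and 67.8 CPM in the same order. To be called, a gene had to pass a Benjamini-Hochberg adjusted p of 0.05 and differ by more than 1 on the log2 scale in edgeR's quasi-likelihood test of the 13704 genes with enough counts. Every adjusted p below comes from that test. In bulk RNA, fewer cells that make an mRNA and less of it per cell cannot be told apart.

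Of these 10 genes, 8 had enough counts to be tested. CDH6 had no count in any library and CDH13 had 0 to 3 per library. CDH3, CDH12 and PCDH18 passed the filter through the condition in which they were high, so their passing is tied to a difference. In shGLO1#1, 2 of the 10 genes were called higher (CDH12 and PCDH18) and 2 lower (CDH2 and PCDH7), where 8.73% of all genes tested were called in either direction, 5.98% higher and 2.75% lower. In shGLO1#2, 2 were called higher (CDH3 and CDH12) and 3 lower (CDH2, CDH11 and PCDH7), where 7.68% of all genes were called, 5.09% higher and 2.59% lower. Both comparisons share the shNT libraries. Libraries of shGLO1#1 and shNT did not overlap for 5 of the 8 tested genes, beside 55.9% of all genes (28.0% higher, 28.0% lower). For shGLO1#2 and shNT they did not overlap for 6, beside 47.3% (23.0% higher, 24.3% lower). The median log2 fold change of the 8 tested genes was -0.19 in shGLO1#1 and 0.35 in shGLO1#2, beside 0.0013 and 0.0012 over all genes, with genes called in both directions.

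The 4 called genes shown here are given with the 250 bases before their outermost RefSeq transcription start (GRCh38.p14), because they are the called genes for which a promoter sequence was given: CDH2 and PCDH7, lower in both clones, and CDH12 and PCDH18, higher in shGLO1#1 or in both clones. Capitals mark a CCAAT box (CCAAT or its reverse complement ATTGG) or a GC box (GGGCGG or its reverse complement CCGCCC), searched on both strands. The CDH2 window lies at chr18:28177131-28177380 and the CDH12 window at chr5:22853345-22853594, both on the minus strand. The PCDH7 window lies at chr4:30720119-30720368 on the plus strand and the PCDH18 window at chr4:137532495-137532744 on the minus strand. Each is written 5′ to 3′ in the direction of transcription.
CDH2: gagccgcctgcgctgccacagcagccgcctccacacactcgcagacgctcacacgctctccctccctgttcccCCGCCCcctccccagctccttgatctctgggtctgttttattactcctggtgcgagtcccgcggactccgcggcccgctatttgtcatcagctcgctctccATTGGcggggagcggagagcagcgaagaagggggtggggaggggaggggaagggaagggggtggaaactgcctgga
PCDH7: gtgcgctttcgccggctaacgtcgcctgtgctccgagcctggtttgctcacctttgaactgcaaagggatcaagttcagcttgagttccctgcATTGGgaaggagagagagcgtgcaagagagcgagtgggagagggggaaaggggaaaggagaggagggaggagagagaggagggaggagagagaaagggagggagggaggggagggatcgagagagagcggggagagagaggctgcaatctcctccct
CDH12: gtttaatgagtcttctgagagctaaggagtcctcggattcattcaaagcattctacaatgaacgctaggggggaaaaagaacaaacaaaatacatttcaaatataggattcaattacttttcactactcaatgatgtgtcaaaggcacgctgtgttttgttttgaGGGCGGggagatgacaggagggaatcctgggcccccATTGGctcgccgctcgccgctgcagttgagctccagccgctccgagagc
PCDH18: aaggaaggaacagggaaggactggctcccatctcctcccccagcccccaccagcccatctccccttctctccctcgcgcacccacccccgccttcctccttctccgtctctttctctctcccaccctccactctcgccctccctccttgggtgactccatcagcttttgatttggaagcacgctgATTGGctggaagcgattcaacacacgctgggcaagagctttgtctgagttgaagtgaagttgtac
Each of the 4 windows held 1 CCAAT box, which 32.01% of 35116 windows of the same length held. CDH2 and CDH12 also held 1 GC box, as 42.64% of all windows did. None of the 4 held the E-box CACCTG (on either strand, 17.49% of all windows) or TATAAA (10.72%). The base composition differed among them, with a GC content of 66.0% and 17 CpG in CDH2, 59.6% and 10 CpG in PCDH7, 58.4% and 8 CpG in PCDH18, and 48.0% and 10 CpG in CDH12, beside medians of 58.0% and 11 CpG over all windows. A CCAAT box was thus found before genes that fell and before genes that rose. The 35116 windows include starts other than the outermost, and other starts of CDH2 and CDH12 are not shown. That of CDH2, at chr18:28036642-28036891, held 1 CCAAT box and 1 TATAAA. For CDH12, the window at chr5:22212770-22213019 held no match, and that at chr5:21889848-21890097 held 1 TATAAA as its reverse complement.

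N-cadherin mRNA fell in both clones, alongside E-cadherin. CDH2 was 5.91, 4.82 and 8.69 CPM in the shNT libraries (6.47 ± 1.99, SD, n = 3), from 319 counts in all. It was 0.863, 1.09 and 1.65 CPM in shGLO1#1 (1.20 ± 0.407) and 0.609, 1.23 and 0.620 CPM in shGLO1#2 (0.819 ± 0.354), from 63 and 42 counts. Every shGLO1 library lay below every shNT library, and the clones overlapped each other. Relative to shNT, shGLO1#1 differed by -2.43 on the log2 scale (SE 0.30, adjusted p = 1.94e-05) and shGLO1#2 by -2.96 (SE 0.32, adjusted p = 7.92e-06), levels 5.38 and 7.80 times lower. Between the clones the difference was -0.54 on the log2 scale, with a 95% interval of -1.40 to 0.32 and an adjusted p of 0.293.

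CDH1, which encodes E-cadherin and was read as the other partner of a cadherin switch, was 32.6, 15.8 and 29.9 CPM in shNT libraries. It was 1.73, 1.52 and 2.17 CPM in shGLO1#1 and 0.548, 0.502 and 0.496 CPM in shGLO1#2. The 3 conditions did not overlap. On the log2 scale shGLO1#1 differed from shNT by -3.85 (SE 0.26, adjusted p = 1.29e-07) and shGLO1#2 by -5.64 (SE 0.33, adjusted p = 4.25e-08). There were 5.51, 3.27 and 3.44 CDH1 counts per CDH2 count in shNT libraries, 2, 1.4 and 1.31 in shGLO1#1 and 0.9, 0.409 and 0.8 in shGLO1#2. The ratio of E- to N-cadherin mRNA therefore moved toward N-cadherin while both mRNAs became scarcer, and the shift came without a gain of CDH2.

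**Figure D1:**
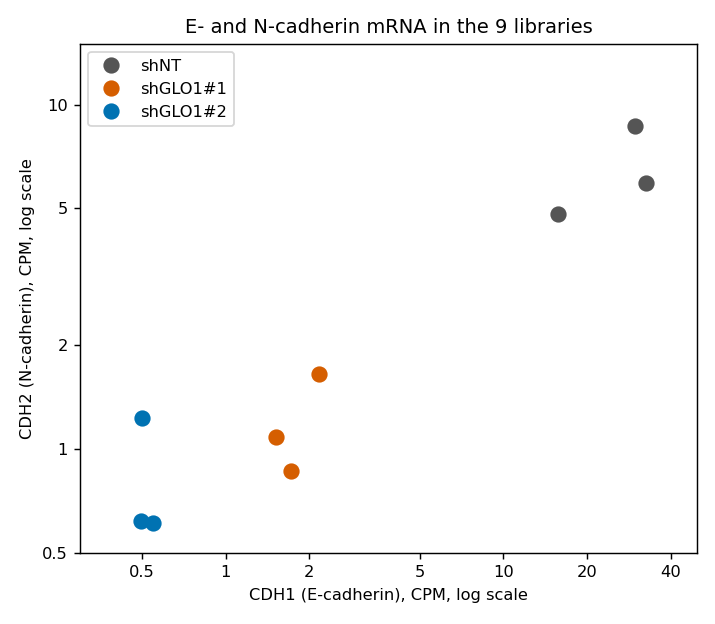
Level of CDH1 (x axis) against CDH2 (y axis) in CPM on log scales, 1 point per library, coloured by condition. The shNT libraries lie at the upper right (CDH1 at 15.8 CPM or more, CDH2 at 4.82 CPM or more), and all 6 shGLO1 libraries lie at CDH1 of 2.17 CPM or less and CDH2 of 1.65 CPM or less.

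PCDH7 mRNA also fell in both clones. PCDH7 is the delta-1 protocadherin also called NF-protocadherin. It was 65.3, 45.6 and 64.1 CPM in shNT (58.3 ± 11.1), 8.94, 10.3 and 9.69 CPM in shGLO1#1 (9.64 ± 0.668) and 15.3, 11.9 and 11.7 CPM in shGLO1#2 (13.0 ± 2.06). The lowest shNT library was far above the highest shGLO1 library, and all shGLO1#2 libraries lay above all shGLO1#1 libraries. Silenced cells differed from shNT by a log2 value of -2.60 for shGLO1#1 (SE 0.15, adjusted p = 3.18e-08) and of -2.17 for shGLO1#2 (SE 0.14, adjusted p = 1.22e-07). Between the clones PCDH7 was 0.42 higher in shGLO1#2 on the log2 scale (SE 0.16, adjusted p = 0.0422), under the fold limit. The adjusted p was 0.0613 to 0.173 without any 1 of the shGLO1#1 libraries or replicate 1 of shGLO1#2. With 145 to 1158 counts per library, it was better counted than CDH2.

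PCDH18, a delta-2 protocadherin, went the other way and mainly in 1 clone. It was 0.134, 0.130 and 0.111 CPM in shNT, or 2 counts in each library, and 2.04, 1.36 and 1.54 CPM in shGLO1#1. The shGLO1#2 libraries held 0.730, 0.112 and 0.434 CPM. All shGLO1#1 libraries were above all others, while replicate 2 of shGLO1#2 lay within the shNT range. The shGLO1#1 clone exceeded shNT by 3.64 on the log2 scale (SE 0.52, adjusted p = 7.25e-05). The shGLO1#2 value was 1.69 (SE 0.68, 95% interval 0.22 to 3.16, adjusted p = 0.0665) and was not called. The value depended on single shGLO1#2 libraries, at 1.06 without replicate 1 (adjusted p = 0.295) and 2.17 without replicate 2 (adjusted p = 0.00915). With the replicate number as a block the adjusted p was 0.0322, and with any 1 of the other libraries left out it was 0.0735 to 0.150. The clones differed, with shGLO1#2 lower by -1.95 on the log2 scale (SE 0.40, adjusted p = 0.00125), and by -2.59 without replicate 1 of shGLO1#2.

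**Figure D2:**
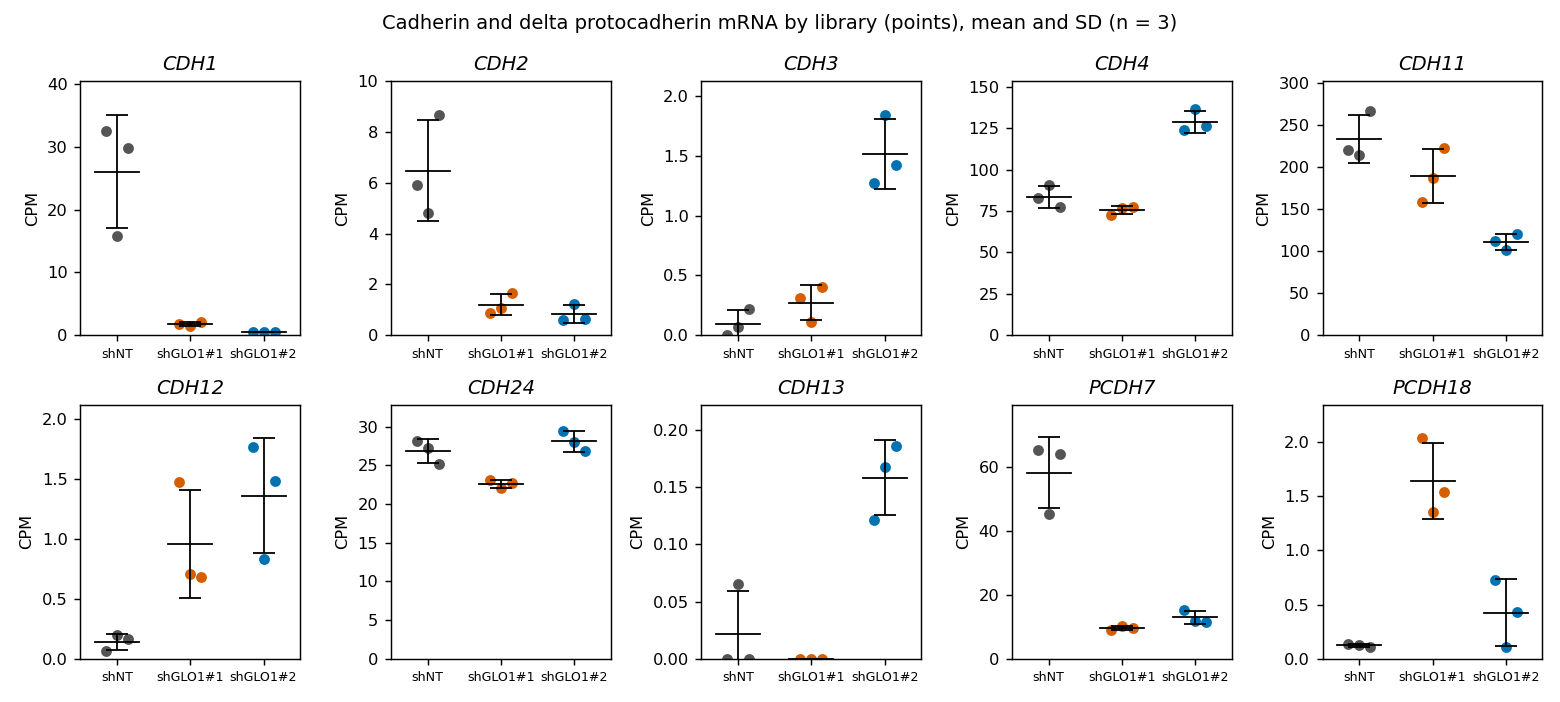
CPM (y axes, linear from 0, a scale of its own in each panel) of CDH1 and 9 of the 10 genes in each library (points) with mean and SD of 3 libraries (horizontal line and bars) by condition (x axes); CDH6, with no count, is left out. CDH2 and PCDH7 are lower in all 6 shGLO1 libraries, CDH12 is higher in all 6, PCDH18 is highest in shGLO1#1 and CDH3 in shGLO1#2.

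CDH12 mRNA, for a type II cadherin known from brain (N-cadherin 2), rose in both clones from a level near the limit of detection. Its counts were 1, 3 and 3 in shNT, 24, 13 and 12 in shGLO1#1 and 29, 15 and 24 in shGLO1#2, or 0.0672 to 0.196, 0.684 to 1.48 and 0.837 to 1.77 CPM. No shGLO1 library overlapped shNT, and the clones overlapped each other. The gain over shNT was 2.64 on the log2 scale for shGLO1#1 (SE 0.57, adjusted p = 0.00186) and 3.16 for shGLO1#2 (SE 0.53, adjusted p = 3.69e-04). Between the clones it was 0.52 (95% interval -0.26 to 1.29, adjusted p = 0.260). The reference annotation holds 4 pseudogenes of CDH12, and the count files list none of them, so reads of a copy could have been given to CDH12 or dropped. Its level in the clones stayed low, at 0.957 ± 0.453 and 1.36 ± 0.476 CPM.

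P-cadherin (CDH3), a type I cadherin of basal epithelial cells, rose in shGLO1#2. Its counts were 0, 1 and 4 in shNT, 5, 2 and 7 in shGLO1#1 and 21, 33 and 23 in shGLO1#2, the last equal to 1.28, 1.84 and 1.43 CPM. The shGLO1#2 libraries lay above all others, and shGLO1#1 overlapped shNT. Against shNT the log2 fold change of shGLO1#2 was 3.79 (SE 0.54, adjusted p = 9.54e-05) and that of shGLO1#1 was 1.32 (SE 0.77, 95% interval -0.34 to 2.98, adjusted p = 0.180), the latter 2.77 without replicate 3 of shNT (adjusted p = 0.0507). Between the clones it was 2.47 (SE 0.44, adjusted p = 4.35e-04). The shNT level rests on 5 counts, and leaving out 1 library at a time moved the shGLO1#2 value between 3.29 (without replicate 1 of shNT) and 5.24 (without its replicate 3). CDH3 lies next to CDH1 in the annotation, and in shGLO1#2 these neighbours moved in opposite directions.

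OB-cadherin (CDH11) and R-cadherin (CDH4) were the most abundant of the cadherins here, and they parted in shGLO1#2. CDH11, a type II cadherin of mesenchymal cells and osteoblasts, was 219.8, 215 and 266 CPM in shNT, 158, 187 and 223 CPM in shGLO1#1 and 112, 101 and 120.07 CPM in shGLO1#2. All shGLO1#2 libraries were below all others, and shGLO1#1 overlapped shNT. On the log2 scale shGLO1#2 was below shNT, at -1.07 (SE 0.11, adjusted p = 7.07e-06), and shGLO1#1 was at -0.30 (SE 0.11, adjusted p = 0.0381), the latter under the fold limit. Its adjusted p was 0.0974 to 0.188 without replicate 1 or 2 of shGLO1#1 or replicate 3 of shNT. The shGLO1#2 value sat at that limit, and without replicate 3 of shNT it was -0.96 and without replicate 2 of shGLO1#2 it was -0.999, below the fold asked for. Between the clones CDH11 was lower in shGLO1#2 by -0.77 (SE 0.11, adjusted p = 9.80e-05).

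CDH4, which encodes R-cadherin, a type I cadherin first known from retina, was 83.1, 90.6 and 77.2 CPM in shNT and 72.9, 77.1 and 77.3 CPM in shGLO1#1, ranges that overlapped. The shGLO1#2 libraries held 124, 136 and 126 CPM, all above the others. For shGLO1#2 the log2 difference from shNT was 0.62 (SE 0.07, adjusted p = 6.62e-06), past the p threshold and under the fold limit, and 38.1% of all genes passed the p threshold alone in that comparison. For shGLO1#1 the difference was -0.14 (SE 0.07, adjusted p = 0.0998). Between the clones it was 0.77 (SE 0.07, adjusted p = 8.26e-07). The lncRNA MIR646HG, the nearest tested gene before CDH4, was called higher in both clones, at 1.46 (adjusted p = 0.00991) and 2.14 (adjusted p = 5.33e-04).

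CDH24, a broadly expressed type II cadherin, varied least among the tested genes. It ranged from 25.2 to 28.1 CPM in shNT libraries, 22.1 to 23.1 CPM in shGLO1#1 and 26.8 to 29.5 CPM in shGLO1#2. Its log2 difference from shNT came to -0.25 for shGLO1#1 (SE 0.08, adjusted p = 0.0199) and 0.07 for shGLO1#2 (95% interval -0.10 to 0.23, adjusted p = 0.528). The shGLO1#1 libraries lay just below the shNT range, and the adjusted p was 0.0546 to 0.0735 without replicate 1 or 2 of shNT or replicate 2 of shGLO1#1. Under the p threshold alone, as here, 45.7% of all genes passed in shGLO1#1.

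T-cadherin (CDH13) is held in the membrane by a lipid anchor, lacks a cytoplasmic tail and binds adiponectin. It had 0, 1 and 0 counts in shNT, none in shGLO1#1 and 2, 3 and 3 in shGLO1#2. The shGLO1#2 to shNT ratio was 7.66 with an exact 95% interval of 1.03 to 340 from 8 and 1 counts, which covers counting error only. Against shGLO1#1 it was at least 2.76-fold higher, with 3 counts over all shGLO1#1 libraries taken as the floor. The filter on low counts left CDH13 out of the test, and 0.122 to 0.186 CPM in shGLO1#2 lay at the detection limit. With no filter it was called between the clones (adjusted p = 0.0230) and not against shNT (adjusted p = 0.130 for shGLO1#2). K-cadherin (CDH6), a type II cadherin of kidney, was not detected at this depth, where a count of 0 allows up to 0.196 CPM.

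**Figure D3:**
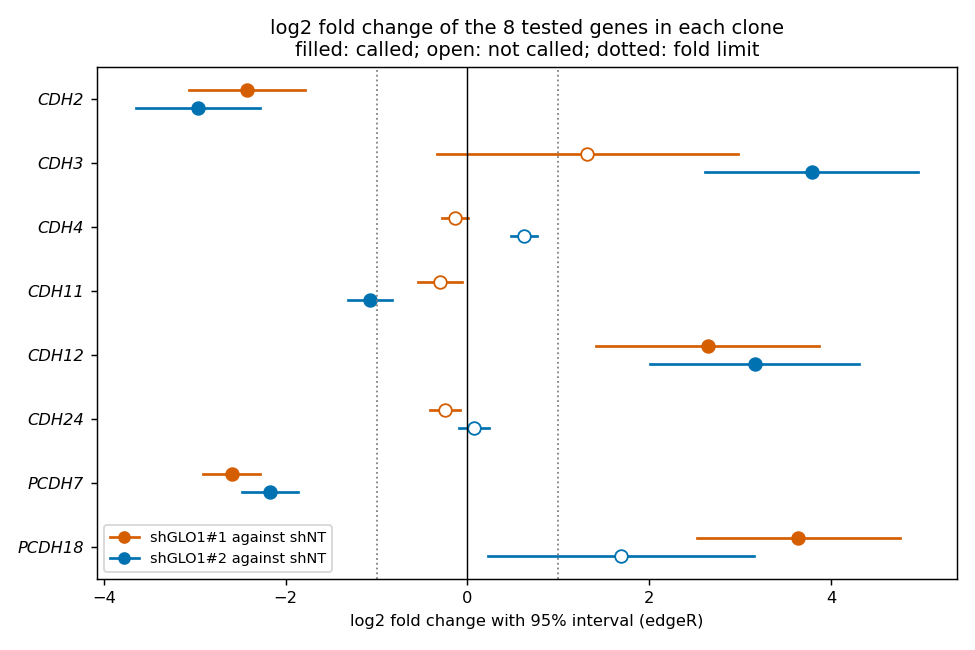
Log2 fold change against shNT (x axis, points) with its 95% interval (lines) for the 8 tested genes (y axis) in shGLO1#1 and shGLO1#2; filled points were called, open points were not, and dotted lines mark the fold limit. CDH2, PCDH7 and CDH12 are filled in both clones, CDH3 and CDH11 only in shGLO1#2 and PCDH18 only in shGLO1#1.

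Direct comparison of the clones called CDH3 higher and PCDH18 lower in shGLO1#2, 2 of the 10 genes, where 7.09% of all genes tested were called between the clones, 3.33% higher and 3.75% lower. A further 4 passed the p threshold under the fold limit, CDH4, CDH24 and PCDH7 higher and CDH11 lower in shGLO1#2, where 46.5% of all genes passed it. Libraries of the clones did not overlap for these 6 genes, beside 55.4% of all genes (26.9% higher and 28.5% lower in shGLO1#2). For CDH2 and CDH12 no difference was shown between the clones, with the intervals given above.

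Per kilobase of exon, which allows genes to be compared, the order in shNT was CDH11 (17.5 ± 2.13 CPM per kb), CDH4 (11.4 ± 0.913), CDH24 (7.16 ± 0.403), PCDH7 (4.76 ± 0.904) and CDH2 (1.31 ± 0.403), with CDH12, the next, at 0.0241 ± 0.0113. With this length none of these 5 overlapped its neighbour in the order. The order of CDH24 and PCDH7 in shNT depends on the length used. PCDH7 has 12249 bases of exon and a longest coding transcript of 6769, and CDH24 has 3748 and 3552. In shGLO1#1 CDH11 (14.1 ± 2.42), CDH4 (10.3 ± 0.337) and CDH24 (6.03 ± 0.134) kept their places, PCDH7 stood at 0.787 ± 0.0545, and PCDH18, CDH2 and CDH12 (0.246, 0.243 and 0.161) overlapped one another. In shGLO1#2 CDH4 came first (17.5 ± 0.908), ahead of CDH11 (8.30 ± 0.714) and CDH24 (7.49 ± 0.356), whose ranges overlapped. That near tie depends on the length used, since with the longest coding transcript CDH11 held 33.0 to 38.5% and CDH24 a lower 16.6 to 18.6% of the cadherin mRNA in shGLO1#2. PCDH7 followed at 1.06 ± 0.168, and CDH3, CDH12 and CDH2 (0.243, 0.230 and 0.165) overlapped.

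The 8 cadherins and CDH1, a sum that leaves out cadherins not followed here such as CDH18, together held 41.6 ± 2.30 CPM per kb in shNT, 31.2 ± 2.73 in shGLO1#1 and 34.1 ± 0.279 in shGLO1#2. CDH11 supplied 41.9% ± 3.17 of this in shNT, 45.1% ± 3.79 in shGLO1#1 and 24.4% ± 2.24 in shGLO1#2. CDH4 supplied 27.5% ± 3.75, 33.1% ± 2.00 and 51.4% ± 2.24. The CDH4 to CDH11 ratio was 0.662 ± 0.123 in shNT, 0.741 ± 0.104 in shGLO1#1 and 2.13 ± 0.290 in shGLO1#2, and every shGLO1#2 library lay above every other. Type II cadherins made up 59.3% ± 1.75 of this cadherin mRNA in shNT, 65.0% ± 1.72 in shGLO1#1 and 47.1% ± 2.57 in shGLO1#2. By share of this sum, which holds CDH1, the clones thus stood on opposite sides of shNT. Every type II share given here has CDH1 in its sum, and the share without CDH1 was not computed. With 9 other type II cadherins added to the sum, CDH18 among them, these shares were 63.4%, 69.95% and 54.6%, in the same order. The sum of the 8 cadherins and CDH1 itself differed among conditions, and CDH1 held 10.1% of it in shNT and 0.934% in shGLO1#1. Of that sum, N-cadherin made up 3.12% ± 0.793 in shNT, 0.766% ± 0.192 in shGLO1#1 and 0.485% ± 0.205 in shGLO1#2. In CPM per kb, mean CDH11 was 17.5 in shNT, 14.1 in shGLO1#1 and 8.30 in shGLO1#2, and mean CDH24 was 7.16, 6.03 and 7.49. The higher type II share of shGLO1#1 thus came without higher means of these main type II genes. With the longest coding transcript as the length, the shares of CDH4 were 21.1%, 25.2% and 44.2%, those of type II cadherins were 67.8%, 73.3% and 54.4%, and the CDH4 to CDH11 ratio was 0.384, 0.430 and 1.23.

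**Figure D4:**
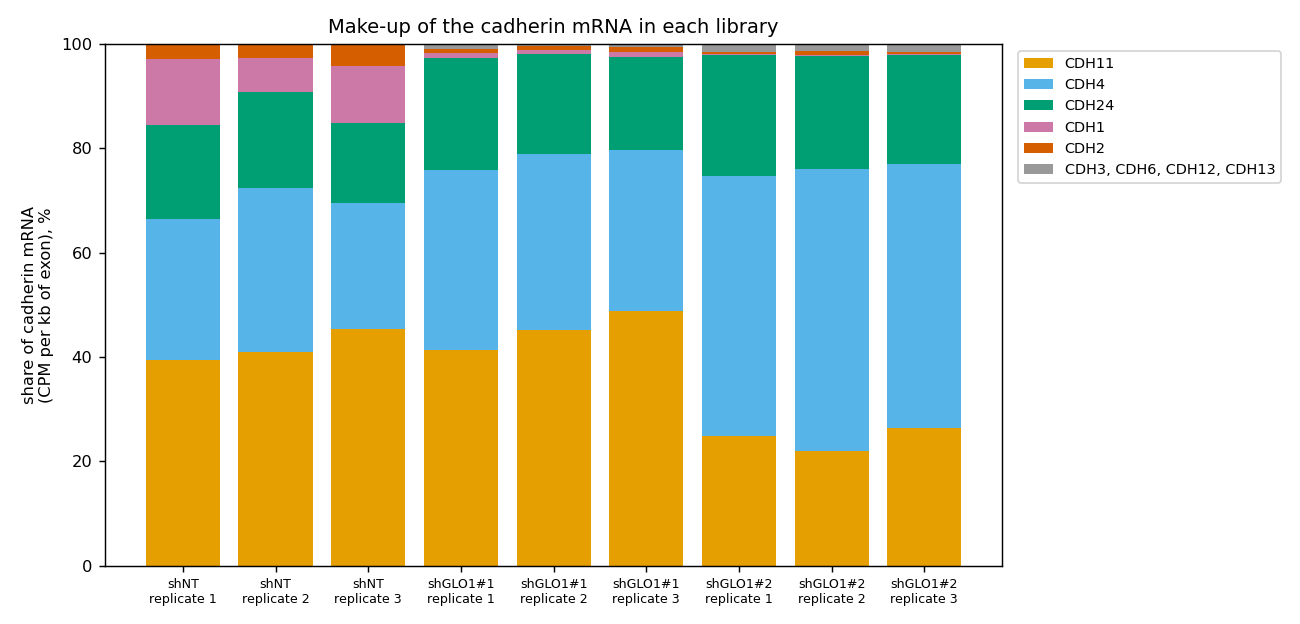
Share of each cadherin in the summed cadherin mRNA (CPM per kb of exon, y axis in percent from 0) in each of the 9 libraries (x axis), as stacked bars. CDH11 is the largest block in the 6 shNT and shGLO1#1 libraries and CDH4 in the 3 shGLO1#2 libraries, and the CDH1 block shrinks from 10.1% of the mean shNT library to 0.934% and 0.245% in the clones.

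Of 12 other classical and type II cadherins, 3 had enough counts, and the counts of called genes below stand beside the shares of all genes given above (8.73% in shGLO1#1 and 7.68% in shGLO1#2). CDH1 was called lower in both clones, and CDH7, a type II cadherin, was called lower in shGLO1#2 (log2 fold change -2.52, adjusted p = 0.00535) and was 0.14 in shGLO1#1 (adjusted p = 0.807). The third, CDH18, also a type II cadherin, was 21.9 ± 1.44 CPM in the control, 24.0 ± 0.981 in shGLO1#1 and 26.8 ± 2.27 in shGLO1#2, with log2 differences of 0.13 (adjusted p = 0.231) and 0.29 (adjusted p = 0.0170) under the fold limit. The list's median was 0.13 in shGLO1#1 and -2.52 in shGLO1#2, beside 0.0013 and 0.0012 over all genes. Of 10 other non-clustered protocadherins, 4 were tested, with 1 higher and 1 lower in shGLO1#1 and 1 higher in shGLO1#2, where 5.98%, 2.75% and 5.09% of all genes were (medians 0.29 and 0.46). PCDH1 was called in opposite directions, at -1.04 in shGLO1#1 (adjusted p = 0.00240) and 1.07 in shGLO1#2 (adjusted p = 7.48e-04), and the clones differed by 2.11 (adjusted p = 4.05e-06). PCDH9 rose in shGLO1#1 (1.59, adjusted p = 6.56e-05) and was 0.31 in shGLO1#2 (adjusted p = 0.362). Among 20 large and atypical cadherins 11 were tested, and 1 was called in each clone, CDHR3 in shGLO1#1 (1.85, adjusted p = 6.47e-04) and the giant cadherin FAT3 in shGLO1#2 (1.98, adjusted p = 2.40e-04), with list medians of 0.02 and 0.16.

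Related gene lists are small, and their counts of called genes are to be read beside the shares of all genes called, 8.73% in shGLO1#1 (5.98% higher, 2.75% lower) and 7.68% in shGLO1#2 (5.09% higher, 2.59% lower). Of the catenins and junction linkers, which cadherins bind inside the cell, 10 of 12 in the files were tested, none was called higher and 1 was called lower in both clones, CTNNA3, the alpha-T-catenin gene (list medians -0.19 and -0.22), a share near that of all genes. CTNNA3 had 111 counts in shNT, 1 in shGLO1#1 and 9 in shGLO1#2. It passed the filter on low counts through shNT, where it was high, so its passing is tied to a difference. The shNT to shGLO1#1 ratio was 119.9 with an exact 95% interval of 21.1 to 4776 (counting error only), and the log2 fold change in shGLO1#2 was -3.65 (adjusted p = 1.23e-04). The abundant CTNNA1 (alpha-E-catenin) was -0.30 in shGLO1#1 (adjusted p = 0.00122) and 0.00 in shGLO1#2 (adjusted p = 0.964). CTNNB1 (beta-catenin) was 0.29 (adjusted p = 1.44e-04) and 0.22 (adjusted p = 0.00135). The largest changes under the fold limit were in CTNNAL1, at -0.52 (adjusted p = 1.29e-04) and -0.51 (adjusted p = 1.76e-04), and in MLLT4. MLLT4 was -0.03 (adjusted p = 0.729) and -0.66 (adjusted p = 3.09e-06). Of all genes, 45.7% and 38.1% passed the p threshold alone.

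Of the WAVE complex, through which several delta protocadherins reach actin, all 9 subunit genes were tested and 2 were called higher in both clones, where 5.98% and 5.09% of all genes were (list medians -0.03 and 0.04). CYFIP2 was 0.939 ± 0.350 CPM in the control, 4.08 ± 0.859 in shGLO1#1 and 22.3 ± 6.24 in shGLO1#2, with log2 fold changes of 2.09 (adjusted p = 1.71e-04) and 4.54 (adjusted p = 6.08e-08). WASF3 was 5.05 ± 2.30, 23.7 ± 5.12 and 16.0 ± 1.52 CPM, with log2 fold changes of 2.21 (adjusted p = 7.89e-06) and 1.65 (adjusted p = 1.51e-04). The alternative subunit CYFIP1 was far more abundant, at 144, 127 and 137 CPM, and was not called. Of 10 genes of cadherin processing, the cleaving enzymes such as ADAM10 and the subunits of gamma-secretase, 0 were called in either clone (medians 0.09 and -0.03), as were 0 of the 5 tested receptors that pair with N- or T-cadherin, FGFR and adiponectin receptor genes (medians -0.15 and -0.18). At the shares above, fewer than 1 call would fall in a list of either size, so these counts are near the background.

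Among 8 transcription factors known to regulate cadherin switching, 6 were tested and 1 was called, higher in both clones, where 5.98% and 5.09% of all genes were (medians 0.17 and 0.25). TCF4, which encodes the E-box factor E2-2, was 0.510 ± 0.152 CPM in the control, 1.42 ± 0.103 in shGLO1#1 and 3.87 ± 0.397 in shGLO1#2 (log2 fold changes 1.45 and 2.89, adjusted p = 9.62e-04 and 1.12e-06). ZEB1, a repressor of CDH1, was 74.4 ± 2.06, 93.8 ± 7.53 and 76.9 ± 0.919 CPM, with log2 fold changes of 0.33 (adjusted p = 6.95e-04) and 0.05 (adjusted p = 0.590), under the fold limit. ZEB2 was 11.2 ± 0.879, 12.9 ± 0.281 and 17.2 ± 1.78 CPM. Its log2 fold changes were 0.21 (adjusted p = 0.123) and 0.63 (adjusted p = 3.92e-04), under the fold limit. In shGLO1#2, 38.1% of all genes passed the p threshold alone. SNAI1 was 0.13 and 0.43, SNAI2 was 0.01 and 0.06 and TCF3 was 0.00 and 0.07, none past the p threshold. TWIST1 and TWIST2 had no count in any library.

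Markers of other cells were read beside these results. Of the fibroblast markers, 3 of 7 were tested, and they summed to 14.4 to 22.4 CPM in shNT, 13.8 to 16.6 in shGLO1#1 and 14.5 to 23.2 in shGLO1#2. LUM was called lower in both clones and PDGFRB higher in shGLO1#2, and DCN, PDGFRA and FAP were each at or near 0. Endothelial markers (3 of 5 tested) summed to 4.43 to 5.80, 6.27 to 8.02 and 7.76 to 9.80 CPM, with PECAM1 called higher in both clones, VWF in shGLO1#2 and CDH5, the endothelial cadherin, at 0 in 6 libraries of shNT and shGLO1#1 and 3 counts over shGLO1#2. Leukocyte markers (2 of 5 tested) summed to 7.56 to 10.7 CPM in shNT, 2.41 to 3.36 in shGLO1#1 and 3.18 to 4.96 in shGLO1#2, of which PTPRC was called lower in both. Neural markers (4 of 5 tested) summed to 119.7 to 144.6, 93.1 to 101 and 101.5 to 105 CPM, with MAP2 and GFAP called higher in shGLO1#1. TUBB3, which held most of that sum, went the other way, at -0.68 in shGLO1#1 (adjusted p = 5.68e-06) and -0.42 in shGLO1#2 (adjusted p = 4.13e-04), under the fold limit. Of 8 mammary epithelial and hormone receptor markers 4 were tested, TP63 was called higher in shGLO1#1, and their sums were 92.8 to 107.5, 93.7 to 100.3 and 85.5 to 89.0 CPM. None of the 5 mesenchymal-like markers was called in either clone. The part of other cell types in the cadherin results was not tested.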

How the data were processed

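RNA of MDA-MB-231 cells was sequenced in 9 libraries, 3 per condition, grouped by their labels. The authors made TruSeq RNA libraries, a kit that leaves strand unmarked, and ran bcl2fastq 2.17, TopHat2 2.1.1 on hg19 and HTSeq. They deposited the raw HTSeq counts of each gene symbol. For HTSeq, the version, annotation and strand setting were not given in the sources used here. Overlapping genes on opposite strands may therefore share reads. The reference annotation holds antisense genes of CDH2 (1), CDH3 (1), CDH4 (2) and CDH13 (2), and the count files list none of them. Genes took 77.1 to 79.5% of the alignments counted, and the 5 rows naming no gene were left out. No library was a copy of another.

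Counts were analysed with edgeR 4.0.16 in R 4.3.3. Low counts were removed with filterByExpr (minimum count 10, minimum total 15), TMM factors were 0.972 to 1.04, and 1 quasi-likelihood model of all 9 libraries gave the 3 comparisons. SE is the absolute log2 fold change over the square root of F. CPM are on TMM-scaled library sizes. Intervals of ratios are exact (Clopper-Pearson, 95%), and like the floor of 3 counts they cover counting error only. The scripts were tested on simulated data. The alternatives were DESeq2 1.42.0, other filters on low counts, a replicate block, a fit of only the 6 libraries compared and each library left out. The length of the longest coding transcript and a wider sum of type II cadherins were added after the data were seen.

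Same-numbered libraries deviated together in shNT and shGLO1#2 (correlations 0.21, 0.185 and 0.309), a hint of pairing from the data only. The correlations were -0.0339, 0.0558 and 0.25 for shNT and shGLO1#1, and 0.197, 0.0691 and 0.341 for shGLO1#1 and shGLO1#2. Libraries of different numbers were not compared in this way, and the main model held no replicate block. Exon lengths, neighbours and 250-base promoter windows came from RefSeq GRCh38.p14 and GENCODE annotation, and no coordinates of the hg19 files were used. Windows matched 5 of the 10 genes. The genes and lists were chosen with earlier results of these data known. The text names all 10 genes, CDH1, GLO1, up to 4 called genes of each list, the 2 genes most alike to each called gene, and called nearest neighbours. CTNNA1, CTNNB1, CTNNAL1, MLLT4, CYFIP1, CDH18, TUBB3 and ERBB2 were named after their values were seen. So were ZEB1, ZEB2, SNAI1, SNAI2, TCF3 and markers at or near 0.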

Additional observations from a re-analysis of the deposited data

Results flagged for a closer look

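For 6 of the 8 tested genes the difference between shGLO1#2 and shGLO1#1 passed an adjusted p of 0.05 in edgeR's quasi-likelihood test of the difference itself, where 46.5% of all genes did. Higher in shGLO1#2 were CDH3, by 2.47 on the log2 scale (adjusted p = 4.35e-04), CDH4, by 0.77 (adjusted p = 8.26e-07), PCDH7, by 0.42 (adjusted p = 0.0422), and CDH24, by 0.31 (adjusted p = 0.00470). The PCDH7 difference did not pass without any 1 of the shGLO1#1 libraries or replicate 1 of shGLO1#2 (adjusted p = 0.0613 to 0.173), which leaves 5 of the 8. Lower in shGLO1#2 were PCDH18, at -1.95 (adjusted p = 0.00125, and -2.59 without replicate 1 of shGLO1#2), and CDH11, at -0.77 (adjusted p = 9.80e-05). For CDH3, CDH4, CDH11, CDH24, PCDH7 and PCDH18 the libraries of the clones did not overlap.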

How the results depend on the processing

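Counts of the 10 genes called in each direction and comparison were recomputed under each alternative, and 79 of 84 such values stayed within 1.5 times the reported count. No direction reversed. A filter at a mean of 1 CPM removed CDH3, CDH12 and PCDH18 from the test and gave 0 genes higher in shGLO1#1, 0 higher in shGLO1#2, and 0 higher and 0 lower between the clones. With no filter, 2 were higher in shGLO1#2 than in shGLO1#1, the second being CDH13 (adjusted p = 0.0230). Leaving out each library gave 2 to 2 higher and 2 to 2 lower in shGLO1#1, 2 to 3 higher and 2 to 3 lower in shGLO1#2, and 1 to 1 higher and 1 to 1 lower between the clones. The changed calls were CDH11 and PCDH18 in shGLO1#2, as given in the report. The replicate block, a hint of pairing from the data, changed no call but that of PCDH18 in shGLO1#2 (1.68, adjusted p = 0.0322). Depth limits CDH3, CDH12, CDH13 and PCDH18, which had 0 to 33 counts per library. With the longest coding transcript as length, the share of CDH11 was 55.4% in shNT, 59.0% in shGLO1#1 and 36.1% in shGLO1#2, and that of CDH24 was 12.4%, 13.8% and 17.7%.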

Other observations

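Among 12754 genes with a mean of at least 1 CPM, those whose log2 CPM over the 9 libraries were most alike to the called genes, by Pearson's r, were as follows. The libraries share their 3 conditions, so these correlations are a description, and r takes no account of the size of a change. STYK1 (r = 0.985) and ALDH9A1 (r = 0.985) were most alike to CDH2, and IL18 (r = 0.995) and CYSTM1 (r = 0.991) to PCDH7. IL18, an inflammatory cytokine gene, stood at 120.8 CPM in shNT and at 47.1 and 53.5 CPM in the shGLO1#1 and shGLO1#2 clones. MUC1 (r = 0.986), an epithelial mucin gene, and ACADSB (r = 0.990) were most alike to CDH11, and MUC1 fell from 20.1 CPM in shNT to 9.51 and 1.71 CPM in the clones. PDE8B (r = 0.985) and STK26 (r = 0.985) were most alike to CDH12, PRRC2C (r = 0.989) and UBASH3B (r = 0.986) to CDH3, and DENND4C (r = 0.988) and IQSEC2 (r = 0.979) to PCDH18. Some changed far less than the gene they resembled. ALDH9A1 was 131.8, 119.7 and 115.8 CPM and PRRC2C 402, 426 and 505 CPM in shNT, shGLO1#1 and shGLO1#2.

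Of the nearest tested neighbours of the 10 genes, CDH1 beside CDH3, MIR646HG beside CDH4 and SLC7A11-AS1 beside PCDH18 were called against shNT. SLC7A11-AS1 was -0.87 in shGLO1#1 (adjusted p = 0.0397 from edgeR) and -1.73 in shGLO1#2 (adjusted p = 0.00197), while PCDH18 was 3.64 and 1.69.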
